A study of Rattus norvegicus with 8 samples.

Results

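Adipocyte genes were examined in kidney cortex, as a list of 10: Adipoq, Cfd, Cidec, Fabp4, Lep, Plin1, Lpl, Retn, Lipe and Ucp1. Their probes were found through the RefSeq accession that the array design gives for each probe. Of the 10 genes, 9 had a named probe, and only Plin1 had none. The 9 genes held 10 of the 30367 probes of the array, which names 14737 genes, since Lipe had 2 and each other gene 1. For Lipe the leading probe was chosen by its higher mean signal over the 8 arrays. All 10 probes passed the filter on dim probes, for which 4 or more arrays had to show a signal well above background. The genes were listed as known markers of fat cells, with earlier results of these arrays in view, so that the pattern over the arrays is given as a description.

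The study compared gene expression between the sexes in slices of kidney cortex from 4 male and 4 female adult rats of the strain RCCHanTMWIST (Han Wistar). Neither sex was treated, and the labels name no altered allele. The kidney capsule was stripped off before slicing, and the slices were kept in RNAlater before RNA was isolated. Total RNA of each rat was labelled with Cy3 and hybridised to its own array, so that every value below stands for 1 rat. All 8 arrays lay on 1 slide and were scanned in 1 run. The 75th percentile of the spot signal, which sets the scale of each array, ranged from 5025 to 6547, and 73.8% to 79.1% of probes were well above background. All 10 genes of a proximal tubule list were well above background on all 8 arrays.

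White adipocytes store triglyceride in a large droplet and secrete adipokines, among them adiponectin and leptin. Fatty acids enter the cell after lipoprotein lipase has freed them from circulating lipoproteins, and leave it again after hormone-sensitive lipase and other lipases have cut the stored triglyceride. Brown adipocytes carry in addition the mitochondrial uncoupling protein UCP1, which turns the energy of fatty acid oxidation into heat. The kidney lies in perirenal fat and holds fat in its sinus, and in rodents perirenal fat can contain brown adipocytes. In a slice of whole tissue, fewer cells of a type and less RNA per cell cannot be told apart.

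The bases just upstream of the annotated starts of 5 of these genes are printed here because Adipoq, Cfd, Retn and Ucp1 shared 1 order of arrays, described below, while Lep did not. Upstream sequence was at hand in RefSeq (build GRCr8) for 7 of the 10 genes, and not for Fabp4, Lpl or Lipe. Each line gives the 250 bases before the start, 5′ to 3′ on the strand of the gene. Capitals mark letters found by searching both strands for the PPAR half-site AGGTCA, the C/EBP site TTGCNNAA, the CCAAT box CCAAT and the TATA box TATAA. No 2 marked stretches overlap within these 5 sequences.
Adipoq, chr11:91240170-91240419, minus strand: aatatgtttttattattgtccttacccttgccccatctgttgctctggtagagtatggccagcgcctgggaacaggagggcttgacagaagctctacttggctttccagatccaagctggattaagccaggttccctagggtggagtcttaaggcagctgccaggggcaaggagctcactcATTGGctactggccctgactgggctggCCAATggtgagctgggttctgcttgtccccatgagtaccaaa
Cfd, chr7:10465497-10465746, minus strand: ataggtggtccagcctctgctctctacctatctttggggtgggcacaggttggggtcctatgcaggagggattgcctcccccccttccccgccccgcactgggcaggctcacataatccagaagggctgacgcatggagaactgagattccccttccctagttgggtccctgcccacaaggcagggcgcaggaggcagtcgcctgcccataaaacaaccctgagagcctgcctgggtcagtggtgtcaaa
Retn, chr12:6508524-6508773, plus strand: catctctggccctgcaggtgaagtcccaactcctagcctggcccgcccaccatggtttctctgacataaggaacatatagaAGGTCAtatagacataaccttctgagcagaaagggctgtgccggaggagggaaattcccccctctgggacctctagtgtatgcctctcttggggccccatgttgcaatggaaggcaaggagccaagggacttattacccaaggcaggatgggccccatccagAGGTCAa
Ucp1, chr19:41721422-41721671, minus strand: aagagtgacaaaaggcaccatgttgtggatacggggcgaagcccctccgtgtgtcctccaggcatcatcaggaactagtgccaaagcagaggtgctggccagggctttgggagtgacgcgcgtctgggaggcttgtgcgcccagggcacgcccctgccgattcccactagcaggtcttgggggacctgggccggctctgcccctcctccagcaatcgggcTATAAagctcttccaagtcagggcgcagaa
Lep, chr4:58626288-58626537, plus strand: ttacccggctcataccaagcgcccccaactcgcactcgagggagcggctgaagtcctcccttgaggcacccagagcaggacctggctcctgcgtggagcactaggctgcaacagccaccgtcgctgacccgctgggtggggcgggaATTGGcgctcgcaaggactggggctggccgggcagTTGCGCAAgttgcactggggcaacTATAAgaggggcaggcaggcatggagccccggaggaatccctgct

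The 4 genes with the shared order held different motifs. Adipoq had 2 matches to the CCAAT box, starting 69 and 42 bases before the start, and 34.0% of all 33469 upstream sequences of this length held at least 1. Retn had 2 matches to the PPAR half-site, starting 169 and 7 bases before the start, a motif that 14.1% of all upstream sequences held. Ucp1 had a TATA box starting 30 bases before the start, found in 24.0% of all. In the Cfd window none of these letters was found. Lep held a CCAAT box, a TATA box and a C/EBP site, the last of which 9.22% of all upstream sequences held and which was also found in Cidec and Plin1. The full PPAR direct repeat of the DR1 type was in none of the 7 windows and in 0.368% of all. The motifs were chosen as textbook elements of fat cell promoters and of promoters in general, and a match is a description of letters, not of a site in use.

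Levels are given on a log2 scale relative to the 75th percentile of each array, so that 0 is the signal of a bright probe and a difference of 1 is a doubling. Levels of different probes cannot be set against each other. Among the secreted proteins, adiponectin is encoded by Adipoq, measured by probe A_64_P001089. Its log2 level was -0.79, -1.03, -1.72 and -1.37 in females 1 to 4 and -1.77, -1.78, -1.74 and -1.22 in males 1 to 4. Female 1 was highest and female 2 second, male 4 stood apart from the other males, and the sexes overlapped. All 8 arrays lay within 1.00 on the log2 scale.

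Cfd encodes adipsin, the complement factor D that fat cells release (probe A_43_P15750). The log2 levels of Cfd were -1.82, -3.52, -5.38 and -4.51 in females 1 to 4 and -5.38, -5.68, -4.81 and -5.54 in males 1 to 4. Females 1 and 2 again led, and the other 6 arrays lay between -5.68 and -4.51. The level in female 1 was 11.7-fold the median of the other 7 arrays.

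Retn encodes resistin, which rodent adipocytes secrete (probe A_64_P002546). Females 1 to 4 had Retn levels (log2) of -3.25, -5.34, -6.35 and -7.68 and males 1 to 4 of -7.63, -7.62, -7.93 and -7.13, with male 2 the 1 array not well above background. The order was female 1, female 2 and female 3, with female 4 among the males. Against female 3, the highest of the other 6 rats, the level was 8.56-fold higher in female 1 and 2.01-fold higher in female 2.

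Lep, which encodes the satiety hormone leptin, behaved otherwise (probe A_64_P085566). Its log2 level was -7.76, -7.98, -8.09 and -7.60 in females 1 to 4 and -7.75, -8.58, -8.13 and -8.15 in males 1 to 4. Only 5 arrays were well above background, and neither female 1 nor female 2 was among them. Female 4 was highest, male 2 lowest, and all 8 values lay within 0.99 on the log2 scale.

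Inside the fat cell, Fabp4 encodes the carrier of fatty acids in the cytosol (probe A_43_P12786). The Fabp4 log2 levels were -3.18, -5.03, -8.13 and -8.15 in females 1 to 4 and -8.90, -6.37, -9.55 and -5.75 in males 1 to 4. It was well above background on 6 arrays and not on those of males 1 and 3. Females 1 and 2 came first again, followed by males 4 and 2, and female 1 was 30.9-fold the median of the other 7. That median is the value of female 3, which was flagged as well above background but came from 2 dim spots with signals of 14.5 and 27.2. The size of this fold is therefore uncertain.

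Cidec encodes a droplet protein that helps lipid droplets fuse (probe A_44_P714007). Cidec had log2 levels of -3.72, -4.26, -4.45 and -5.83 in females 1 to 4 and -4.05, -4.79, -4.54 and -4.15 in males 1 to 4. Female 1 was highest, but males 1 and 4 came before female 2, and female 4 was lowest.

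Lpl encodes lipoprotein lipase, which many tissues besides fat make (probe A_44_P1016480, 10 spots on each array). Its log2 level was -0.26, -0.41, -0.37 and -0.70 in females 1 to 4 and -1.53, -1.07, -1.37 and -0.93 in males 1 to 4. Every female lay above every male, and females 1 and 2 were close to female 3.

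Lipe encodes hormone-sensitive lipase and had 2 probes. The brighter, A_64_P023029, gave log2 levels of -6.97, -6.77, -6.75 and -6.68 in females 1 to 4 and -6.81, -5.89, -6.53 and -7.05 in males 1 to 4. Female 1 was the second lowest and male 2 the highest. The male 2 value came from 2 unlike spots, with signals of 66.0 and 138, and is therefore uncertain. The other probe, A_64_P338784, was well above background on 6 arrays, with log2 levels of -7.93, -8.06, -7.80 and -7.14 in females and -7.58, -7.74, -7.39 and -7.41 in males, and put females 1 and 2 lowest. The probes ranked the arrays differently, with a Pearson r of -0.0015 over the 8 arrays.

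Ucp1, the uncoupling protein of brown fat, was measured by 10 spots on each array (probe A_42_P614984). The Ucp1 log2 levels were -3.07, -4.43, -7.09 and -6.77 in females 1 to 4 and -7.41, -7.46, -7.65 and -6.64 in males 1 to 4. Female 1 was 16.2-fold the median of the other 7 arrays. Even against the highest of the 6 arrays other than females 1 and 2, which was male 4, female 1 was 11.9-fold and female 2 was 4.61-fold higher. On these 6 arrays Ucp1 was well above background but dim, with mean signals of 32.3 (male 3) to 64.8 (male 4). The size of these folds is therefore uncertain.

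**Figure D1:**
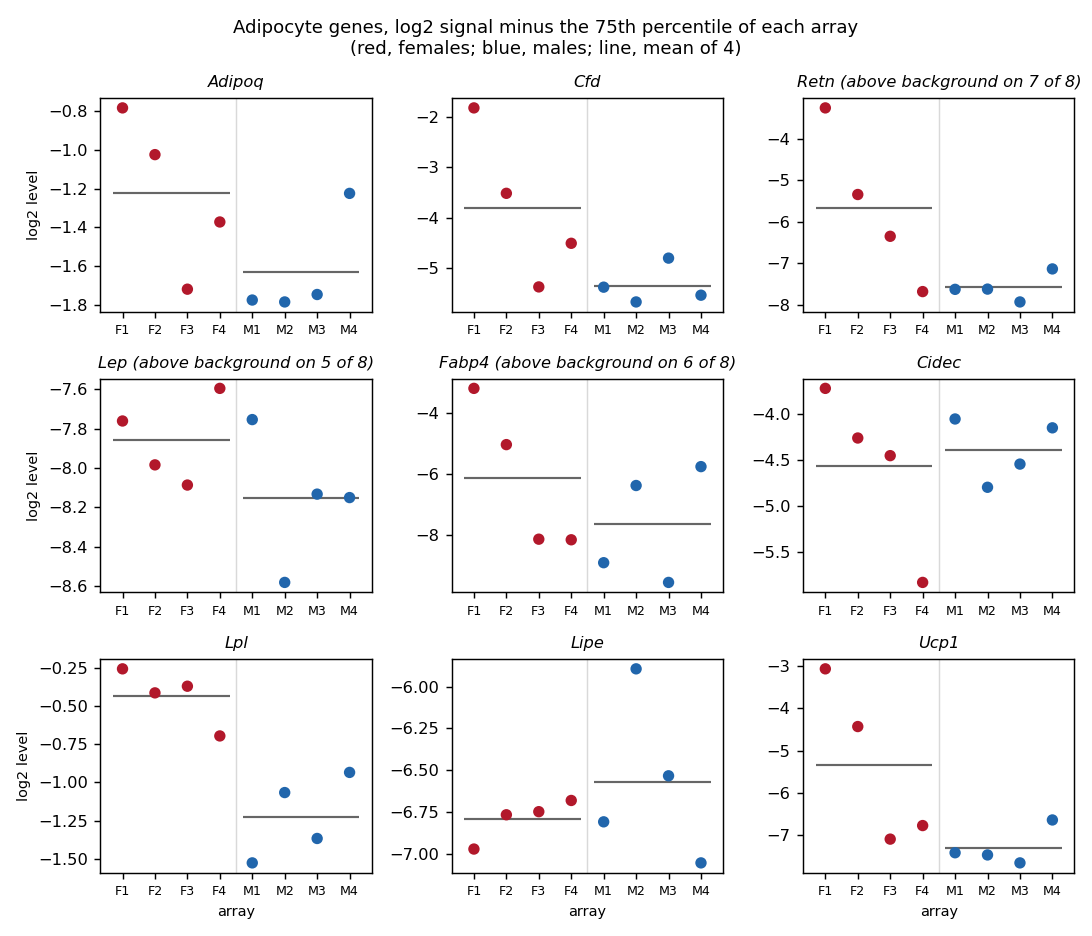
Log2 level of each of the 9 genes (vertical axis, signal relative to the 75th percentile of the array) in females 1 to 4 (red, F1 to F4) and males 1 to 4 (blue, M1 to M4), with the mean of each sex as a line. Female 1 and then female 2 are the 2 highest of the 8 arrays for Adipoq, Cfd, Retn, Fabp4 and Ucp1, every female lies above every male for Lpl, and Lep, Cidec and Lipe follow neither pattern.

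Female 1 gave the highest value of 7 of the 9 genes. Over all 23425 probes tested it did so for 16.5%. Female 1 was highest and female 2 second for 5 of the 9 genes (Adipoq, Cfd, Fabp4, Retn and Ucp1), an order found in 5.16% of all probes tested. The arrays of females 1 and 2 lay in the same row of the slide as those of males 2 and 3. Of the 8 arrays, those of males 2 and 3 were lowest for Ucp1, at -7.46 and -7.65, while for Fabp4 male 2 came after male 4 and male 3 was last. For Cfd male 2 was last, at -5.68, but male 3 was the highest male, at -4.81. For Adipoq male 2 was last, at -1.78, and for Retn male 3, at -7.93. The part of the slide row in this order of arrays was not tested. Slopes and correlations with the slide row as a block are given below.

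Whether the genes rose and fell together was examined by their correlation over the 8 arrays. The 9 genes gave 36 pairs, tested by exact permutation of the pairings (two-sided, unadjusted). The Pearson r ranged from -0.670 to 0.949 with a median of 0.453, and 26 pairs were above 0. The exact p was under 0.05 for 11 pairs, and r was positive in all 11. Adipoq, Cfd, Fabp4, Retn and Ucp1, which were grouped after their values were seen, had a median r of 0.858 over their 10 pairs. The lowest of these was 0.680, for Cfd with Fabp4. Pairs among Cidec, Lep, Lpl and Lipe had a median r of -0.198.

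The 3 closest pairs all held Ucp1. Over the 8 rats, Ucp1 with Adipoq gave r = 0.931 with exact p = 0.000124, and Spearman's rho = 0.929 with exact p = 0.00223. Ucp1 with Retn gave r = 0.949 with exact p = 0.00387, and Spearman's rho = 0.786 with exact p = 0.0279. Ucp1 with Cfd gave r = 0.931 with exact p = 0.00789, and Spearman's rho = 0.595 with exact p = 0.132, so that the ranks of this pair were less close than its values. When each gene was centred within its sex, r was 0.898 (exact p = 0.00868), 0.916 (exact p = 0.0208) and 0.887 (exact p = 0.0642) for these pairs by permutation within the sexes. Lpl, the gene whose level separated the sexes, gave r = 0.775 with exact p = 0.0146, and Spearman's rho = 0.786 with exact p = 0.0279 for the pair with Retn. Its pair with Ucp1 gave r = 0.729 with exact p = 0.0351, and Spearman's rho = 0.762 with exact p = 0.0368. Within the sexes r was 0.591 (exact p = 0.0469) with Retn and 0.479 (exact p = 0.149) with Ucp1. The brighter Lipe probe was negatively related to each other gene, with r between -0.670 and -0.240. In none of these 8 pairs was the exact p of the pooled r under 0.05. Its pair with Cidec, however, gave Spearman's rho = -0.857 with exact p = 0.0107, and within the sexes r = -0.508 (exact p = 0.0122). The dimmer Lipe probe gave r = -0.36 with Adipoq, and its r with the other genes was not computed.

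Most of these relations rested on females 1 and 2. Without their arrays, which are also the 2 farthest from the median of Adipoq, the median r of the 36 pairs was 0.0646 over the remaining 6 rats, and that of the 10 pairs of Adipoq, Cfd, Fabp4, Retn and Ucp1 was 0.239. The r of Cfd with Fabp4 was then -0.615, and that of Cfd with Ucp1 was 0.0793. Adipoq and Ucp1 were an exception, with r = 0.911 over the remaining 6, in which male 4 and female 4 were highest for both. The Ucp1 probe was dim on these 6 arrays. The relation of Fabp4 with Ucp1 was 0.541 and that of Retn with Lpl 0.756. Restricted to the 6 genes well above background on all 8 arrays (Adipoq, Cfd, Cidec, Lpl, Lipe and Ucp1), the median r of the 15 pairs was 0.325, with 10 of 15 above 0. That median was -0.0089 without female 1 alone and -0.164 without females 1 and 2.

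**Figure D2:**
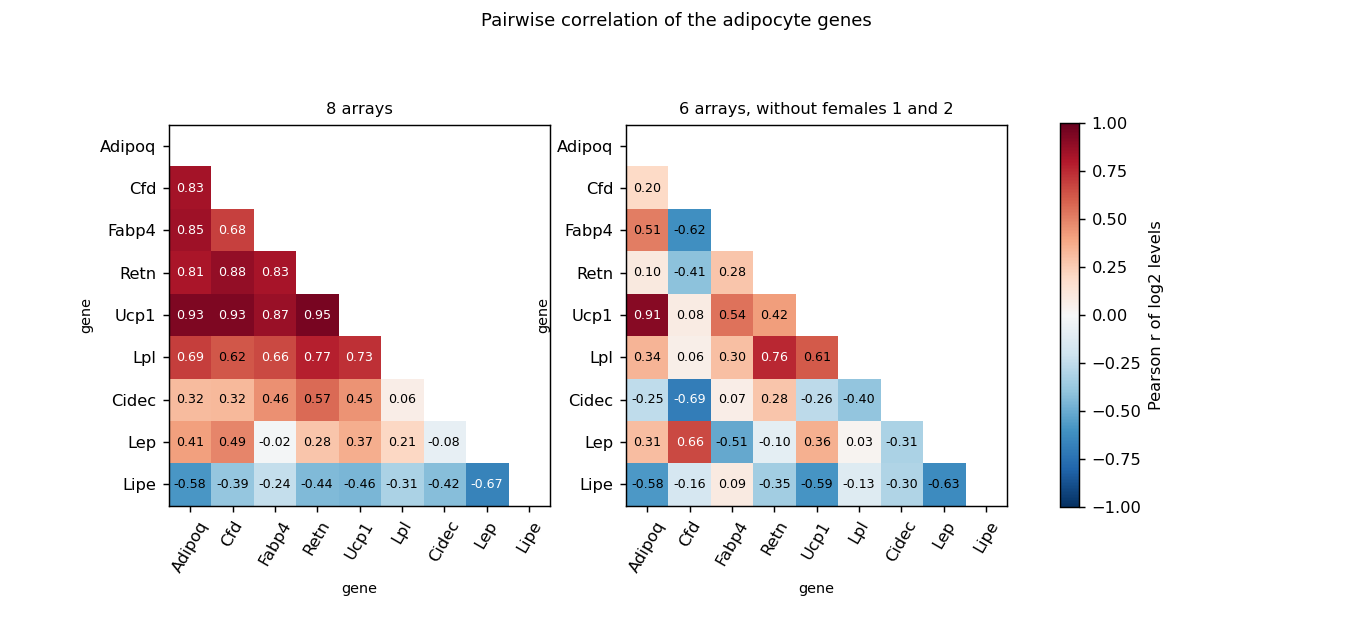
Pearson r of the log2 levels for each pair of genes (both axes list the 9 genes), over all 8 arrays on the left and over 6 arrays without females 1 and 2 on the right, with colour from blue for -1 to red for 1. The block of high values among Adipoq, Cfd, Fabp4, Retn and Ucp1 on the left, with a median of 0.858, falls to a median of 0.239 on the right, where Adipoq with Ucp1 stays at 0.91.

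In a limma fit across the array, each probe was set against the Adipoq level with sex in the model. The slope is the change in log2 level of a probe for a change of 1 in the log2 level of Adipoq. Ucp1 had a slope of 3.62 ± 0.66 (SE, n = 8, unadjusted p = 0.0008 by limma), Fabp4 5.25 ± 1.28 (unadjusted p = 0.00416 by limma), Cfd 2.39 ± 0.80 (unadjusted p = 0.0186 by limma) and Retn 2.77 ± 1.00 (unadjusted p = 0.0265 by limma). None of the 8 genes passed at an adjusted p under 0.05, and neither did any other of the 23424 probes (0% called). At an unadjusted p under 0.05, 4 of the 8 genes had a positive slope, against 1.89% of all probes (3.45% in either direction). The genes were listed with earlier results of these arrays in view, so that this count is a description. The slopes of Cfd and Retn rested on females 1 and 2: without female 1 they were 1.21 and 1.27, and without both 0.227 and 0.0123. Without both, the slope was 1.44 for Ucp1 and 3.45 for Fabp4. With the slide row as a block and all rats kept, the slope was 3.25 for Ucp1, 4.83 for Fabp4, 1.93 for Cfd and 2.40 for Retn.

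For the other genes the 95% interval of the slope held 0. It ran from -0.22 to 0.89 for Lpl, from -0.54 to 2.46 for Cidec, from -0.60 to 0.88 for Lep and from -1.35 to 0.29 for the brighter Lipe probe. The median slope of the 8 genes was 1.68 and that of all probes 0.02. The 8 values of Adipoq spanned 1.00 on the log2 scale, against 4.68 for Retn and 4.58 for Ucp1.

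**Figure D3:**
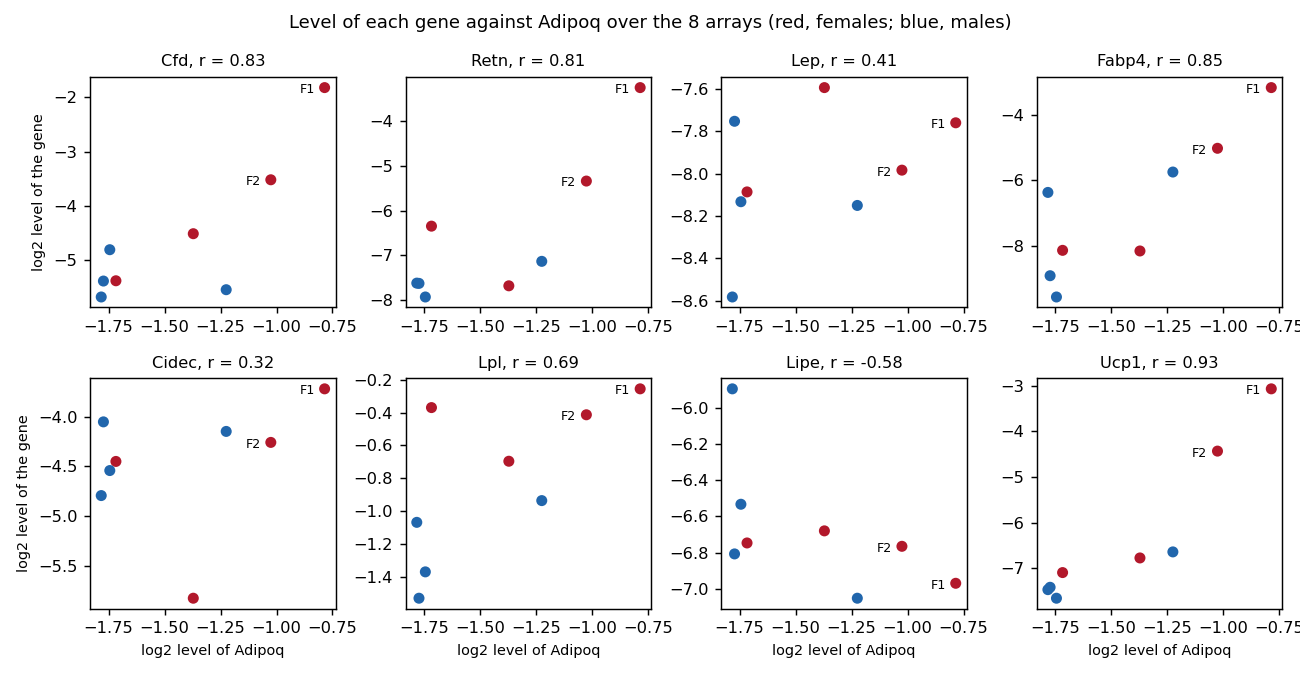
Log2 level of each other gene (vertical axes) against that of Adipoq (horizontal axes), 1 point per rat, females red and males blue, with females 1 and 2 named and the Pearson r over 8 rats above each panel. The levels of Cfd, Retn, Fabp4 and Ucp1 are highest in females 1 and 2, where Adipoq is highest, whereas those of Lep, Cidec and Lipe show r between -0.58 and 0.41.

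The 10 genes outside the list whose probes followed Adipoq most closely were taken from 1697 named candidates that were well above background on all 8 arrays and spanned at least 1 on the log2 scale. The Pearson r over the 8 rats was highest for Pla2g2a, a secreted phospholipase (0.972), Inhca (0.959) and Tmed6 (0.911), and Itgb4, Col8a1, Gclm, Ihh, Ldhc and Irs2 (0.854) were among the others. Among the same candidates 2 had a higher r than Ucp1, 15 than Cfd, 115 than Lpl, 653 than Cidec and 1516 than Lipe. Female 1 was highest for Pla2g2a at -4.23, with female 2 at -4.73 and the other 6 arrays between -5.65 and -4.78. Of the genes named here, only Ldhc differed between the sexes at an adjusted p under 0.05 (male minus female -0.92, adjusted p = 0.0255 by limma).

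The sexes were compared for each gene by limma across all 23425 probes, with a call at an adjusted p under 0.05 and a log2 difference of at least 1. None of the 9 genes was called, against 1.89% of all probes (1.09% higher in females and 0.798% higher in males). At the adjusted p alone, 1 of the 9 passed, which was Lpl, higher in females, against 8.06% of all probes (4.67% higher in females and 3.39% higher in males). At an unadjusted p under 0.05, 4 of the 9 did (Cfd, Lpl, Retn and Ucp1), each lower in males, against 25.6% of all probes in either direction and 15.8% higher in females.

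The mean log2 level of Lpl was -0.43 ± 0.19 in the females and -1.22 ± 0.27 in the males (SD, n = 4 each). The male minus female difference was -0.79 (95% interval -1.13 to -0.45, adjusted p = 0.0184 by limma, exact permutation p = 0.0286, the smallest that 4 against 4 allows), that is 1.73-fold higher in females. The levels of the sexes did not overlap, as for 18.5% of all probes tested. The difference was -0.70 in 1 slide row and -0.88 in the other. The adjusted p was above 0.05 without female 2, female 3 or male 3, at 0.0533, 0.0517 and 0.0505, and 0.142 without females 1 and 2, when the difference was -0.69.

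The larger differences were less certain. The Ucp1 mean was -5.34 ± 1.92 in the females and -7.29 ± 0.45 in the males (SD, n = 4 each), a difference of -1.95 (95% interval -3.87 to -0.03, adjusted p = 0.190 by limma). Retn differed by -1.92 (95% interval -3.77 to -0.07, adjusted p = 0.180 by limma), Cfd by -1.54 (95% interval -3.08 to -0.01, adjusted p = 0.193 by limma) and Fabp4 by -1.52 (95% interval -4.52 to 1.48, adjusted p = 0.515 by limma). For Ucp1, Retn and Cfd the spread lay mainly in the females: for Retn the SD was 1.87 among them and 0.33 among males, and for Cfd 1.53 and 0.38. Fabp4 varied in both sexes, with an SD of 2.45 among females and 1.86 among males.

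These differences changed with the arrays used. In the slide row of females 1 and 2 the male minus female difference was -3.81 for Ucp1, -3.48 for Retn, -3.86 for Fabp4 and -2.57 for Cfd. In the other row, with females 3 and 4 and males 1 and 4, it was -0.09, -0.37, 0.81 and -0.52. Without females 1 and 2, Ucp1 differed by -0.36, Retn by -0.56, Cfd by -0.41 and Fabp4 by 0.50. Females 1 and 2 share a row, so that among the females row and rat cannot be told apart.

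The intervals of the other 4 genes held 0. The male minus female difference of Adipoq was -0.41 (95% interval -0.90 to 0.09, adjusted p = 0.277 by limma), that of Lep -0.30 (-0.71 to 0.11, adjusted p = 0.342 by limma), that of Cidec 0.18 (-0.76 to 1.12, adjusted p = 0.828 by limma) and that of the brighter Lipe probe 0.22 (-0.30 to 0.73, adjusted p = 0.592 by limma). The dimmer Lipe probe differed by 0.21 (-0.24 to 0.65, adjusted p = 0.558 by limma). For genes other than Lpl the exact permutation p was between 0.0571, for Cfd, and 0.800, for Cidec.

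**Figure D4:**
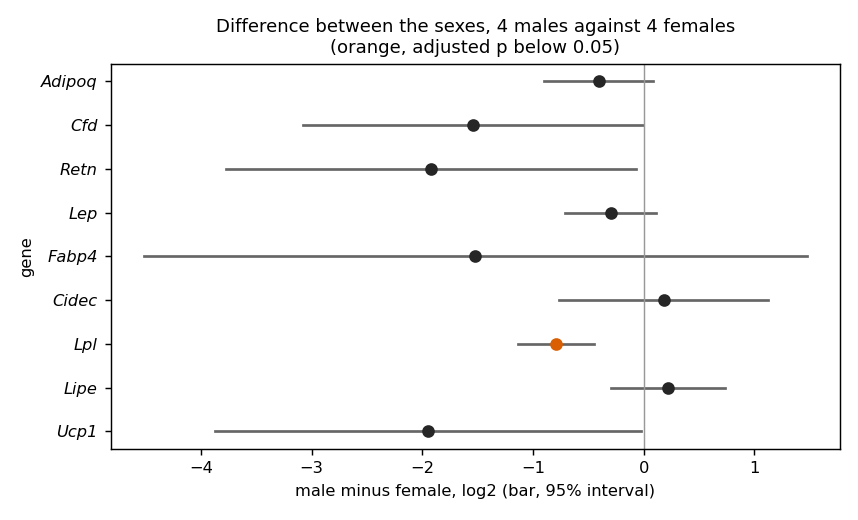
Male minus female difference in log2 level (horizontal axis) for each gene, with its 95% interval from limma, 4 males against 4 females. The Lpl difference (orange) is the 1 with an adjusted p under 0.05, and the intervals of Ucp1, Retn and Fabp4 are the widest.

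The 5 further lists of adipocyte biology held 71 genes, of which 63 had a named probe and 57 were tested. In the comparison of the sexes 2 of the 57 were called, Acvr1c and Cidea, both higher in females, against 1.89% of all probes (1.09% higher in females). At an unadjusted p under 0.05 by limma it was 20 of the 57, against 25.6%. Acvr1c, the activin receptor ALK7, had a mean log2 level of -1.13 ± 0.16 in the females and -3.47 ± 0.45 in the males (SD, n = 4 each), a male minus female difference of -2.33 (adjusted p = 0.000887 by limma). Cidea, a lipid droplet protein of brown adipocytes, had a male minus female difference of -1.18 (adjusted p = 0.0108 by limma), and its second probe of -1.21. By the leading probes females 1 and 2 did not stand apart together in either gene. The 4 females lay between -1.35 and -0.96 for Acvr1c and between -1.46 and -0.48 for Cidea. Female 1 was highest and female 3 second for both. The second probe of each gene had female 1 highest and female 2 second. In the fit against Adipoq none of the 57 was called, and 4 had an unadjusted p under 0.05 with a positive slope, which were Scd, Thrsp, Car3 and Cpt1b, and 2 with a negative one, Lpin1 and Cebpa, against 1.89% of all probes with a positive slope and 3.45% in either direction.

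Scd and Thrsp showed the order of arrays of the 5 genes above, and with Adrb3 and Car3 they are named here after their values were seen. Scd encodes a stearoyl-CoA desaturase, which makes monounsaturated fatty acids. Its log2 level was -3.32, -4.90, -6.07 and -6.31 in females 1 to 4 and -6.88, -6.96, -7.41 and -7.08 in males 1 to 4. Thrsp, a regulator of fatty acid synthesis, was at -3.98 and -5.79 in females 1 and 2 and between -7.55 and -6.51 in the other 6 rats. For both, the 4 females lay above the 4 males, with adjusted p = 0.0858 for Scd and 0.125 for Thrsp by limma. The sexes did not overlap for 7 of 21 tested genes of fatty acid uptake and triglyceride synthesis, against 18.5% of all probes tested. This share varied between lists, from none of 8 genes of fibroblast and mesothelium to 6 of 10 proximal tubule genes. It was 4 of 12 for lipid droplet and lipolysis.

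Adrb3, the beta-3 adrenergic receptor of fat cells, was well above background on the arrays of females 1 and 2 alone, at -5.36 and -6.80, and was not tested. Car3, a carbonic anhydrase abundant in fat and muscle, was highest in female 1 at -3.61, but at -5.86 in female 2 it lay below all 4 males. In the list of fatty acid uptake and triglyceride synthesis, female 1 and then female 2 led for 3 of 21 tested genes, Fabp5, Scd and Thrsp. By the leading probe of each gene they led for none of 12 tested genes of lipid droplet and lipolysis, though the second probe of Cidea had this order, for none of 8 adipogenic transcription factors, and for 1 of 8 brown adipocyte genes, Cpt1b. In all this was 4 of 57 further adipocyte genes and 5 of 51 genes on the lists of other cell types (Ggt1, Slc7a13, Synpo, Krt5 and Cyp21a1), beside 5.16% of all probes. Pparg, the master regulator of fat cell formation, was highest in female 1 at -3.11, with female 2 at -3.96 among the other 6 rats (-3.99 to -3.51). Of the further brown adipocyte genes, Dio2 and Zic1 were well above background on no array.

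**Figure D5:**
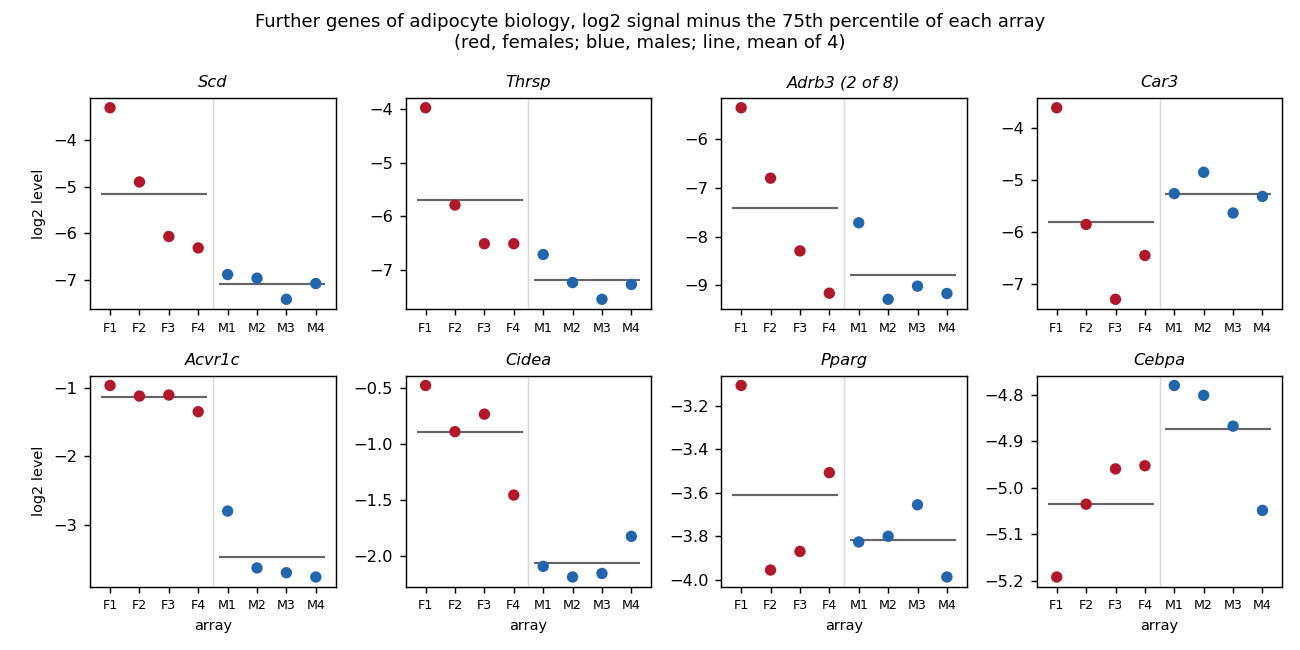
Log2 level of 8 further genes (vertical axis, signal relative to the 75th percentile of the array) in females (red, F1 to F4) and males (blue, M1 to M4), with the mean of each sex as a line; Adrb3 was well above background on 2 of 8 arrays. Scd, Thrsp and Adrb3 are highest in females 1 and 2, Acvr1c and Cidea separate the sexes, and Cebpa is lowest in female 1.

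Markers of other cells that a slice may hold were followed in the same way. Of 68 genes on 8 lists (endothelium, macrophage, fibroblast and mesothelium, renal pelvis urothelium, adrenal cortex, blood, proximal tubule and podocyte), 51 were tested. None was called between the sexes, against 1.89% of all probes, and none in the fit against Adipoq, against 0%. At an unadjusted p under 0.05 by limma, 8 of the 51 differed between the sexes, against 25.6% of all probes. On the lists of urothelium, adrenal cortex and blood, 4 of 6, 4 of 9 and 5 of 8 genes were tested. At an unadjusted p under 0.05, 3 had a positive slope against Adipoq, which were Upk1b, Hbb and Alas2, against 1.89% of all probes. For each list the linear levels of the leading probes were summed, including probes too dim to be tested. Such a sum weighs the brightest probes most, so it compares arrays within a list and is not an amount of a cell type. The summed linear level of the urothelium list, relative to the 75th percentile, was 0.148 in female 1, 0.171 in female 2 and between 0.105 and 0.147 in the other 6 rats. That of the adrenal cortex list was 0.218 in female 1 and 0.179 in female 2, against 0.126 to 0.186 in the others. That of the blood list was 50.7 and 56.9, against 37.2 to 55.5 in the others. The endothelium sum was 12.6 in female 1 and 13.6 in female 2 and ran from 12.0 to 14.0 in the others. For macrophages the sums were 23.9 and 25.9 against 20.2 to 31.9, and for fibroblasts and mesothelium 6.64 and 7.91 against 5.99 to 7.53. For podocytes the sums were 12.3 and 12.4, against 13.0 and 12.6 in females 3 and 4 and 10.5 to 11.0 in the males, so that the sexes did not overlap. The proximal tubule sum was highest in female 1 at 269 and second in female 2 at 254, against 226 to 252 in the others. The part of these cells in the result was not tested.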

How the data were processed

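The authors deposited for each of the 8 arrays a signal intensity per spot from Feature Extraction 10.7.3.1, background-subtracted and not normalized between arrays, with flags for outlier spots and for spots well above background. The authors also deposited log2 values of the same arrays, which have 1 distribution on all arrays (column median 8.97) and the rank order of the signals; they were an alternative here. The submitters' processing notes name limma 3.8.2.

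From the intensity, log2 values minus the 75th percentile of each array's non-control spots were computed, outlier spots were left out and spots of a probe averaged. Probes well above background on at least 4 arrays (23425) were tested with limma 3.58.1 in R 4.3.3, with Benjamini-Hochberg adjustment over all of them, for male minus female and for the slope on Adipoq with sex in the model. Both fits were tested on simulated data, in which 200 probes were given a change of size 2. The fit of the sexes recovered 191 of them with 3 false calls, and the slope fit 168 with 13 false calls. Correlations were tested by exact permutation of 40320 pairings (576 within the sexes). A probe was named through its RefSeq accession; every gene of the list, the 10 probes most like Adipoq (1 of them is not reported here), and called genes of the further lists are named. The members and the lists were chosen with earlier results of these data known. Each array is 1 rat. The number of arrays limits the precision.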

Additional observations from a re-analysis of the deposited data

Results flagged for a closer look

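By Dixon's test within a sex, which asks whether 1 of 4 rats lies far from the other 3, 2 of 52 groups stood out, where chance gives about 1 in 20 (2.6 of 52). Adipoq in male 4, at a log2 level of -1.22, lay above the other 3 males. Acvr1c in male 1, at -2.80, lay above the other 3 males, on the side of the females.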

How the results depend on the processing

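The direction of the male minus female difference of Adipoq, Cfd, Lep, Lpl, Retn and Ucp1 was the same under every alternative run, and so was that of the slope on Adipoq of Cfd, Fabp4, Lpl, Retn, Ucp1 and Lipe, although without females 1 and 2 the slope was 0.0123 for Retn and 0.227 for Cfd, against 2.77 and 2.39. Directions turned only for these values. The male minus female difference was -0.241 for Cidec without female 4 (up to 0.462 with another rat left out), -0.0070 for Lipe without male 2 (up to 0.379) and 0.498 for Fabp4 without females 1 and 2. The slope of Cidec was -0.388 without females 1 and 2, and that of Lep was -0.132 without female 3 (up to 0.252 with another rat left out) and -0.0032 with Cidec in place of Adipoq. The median r of 15 pairs ranged from -0.0089 to 0.669 when 1 rat was left out, and was -0.164 without females 1 and 2. For the other alternatives it was 0.269, with the slide row as a block, to 0.479. Leaving out females 1 and 2 together, Ucp1 or Cfd in place of Adipoq, and entering genes above background on at least 4 arrays in the median r were chosen after seeing the data. Without females 1 and 2, 259 probes were called between the sexes, against 443. The count of list genes at the adjusted p alone ranged from 0 to 1 when 1 rat was left out and was 0 without females 1 and 2. With the replicate number of the labels as a block that count was 0 (Lpl, adjusted p = 0.0782 by limma), and the slope of Lep was -0.131. Same-numbered rats of the sexes deviated together weakly or not at all (r = 0.125, 0.043, -0.008 and 0.117 for numbers 1 to 4), so that the numbers were not taken as a pairing. No list gene was called in either fit under any alternative. The cause of these changes was not tested. Fabp4, Lep and Retn were near background on some arrays, where their levels are least certain. Ucp1 was well above background throughout, but outside females 1 and 2 its mean signal was only 32.3 (male 3) to 64.8 (male 4). The brighter Lipe probe had mean signals of 45.5 (female 1) to 102 (male 2).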
